A study of Mesocricetus auratus and Mus musculus with 214 samples.

Results

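Round spermatids are the haploid cells that follow the meiotic divisions of the male germ line, and in wild-type golden hamsters 123 of 36133 annotated genes were both abundant in them and switched on there. These genes were chosen by their values: a mean of at least 200 FPKM (fragments per kilobase of gene, scaled to the mapped reads of the library) in the round spermatid libraries, and that mean plus 1 at least 64 times the mean in pachytene spermatocytes plus 1. The high level in round spermatids and the low level in pachytene spermatocytes are therefore the selection itself and are given as a description, with no test. Of the 668 genes at 200 FPKM or more in round spermatids, the other 545 did not reach the fold. Genes just inside the level bound were LOC101839521 at 200.04 FPKM and Adig at 200.4 FPKM, and Saxo1 lay just outside at 199.9 FPKM. Genes just inside the fold bound were LOC121133206 at 64.1, Gapdhs at 64.3 and Irgc at 64.8, and Actrt2 lay just outside at 63.8.

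During spermiogenesis the round spermatid builds the acrosome, condenses its nucleus and grows a flagellum. Transcription stops as the chromatin is compacted, so that many messages are made early, stored and translated later, and most RNA is discarded with the residual cytoplasm before the sperm is released. Genes that come on only after meiosis are known for serving these structures, and in whole testis their level follows whether spermatids are present. PIWI proteins bind piRNAs, small RNAs that guide the silencing of transposons and, in spermatocytes, act on other transcripts too.

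The libraries are from LVG Golden Syrian hamsters. Frameshift mutants of Piwil1 (Piwil1-/-), Piwil2 (Piwil2-/-), Piwil3 (Piwil3-/-) and Piwil4 (Piwil4-/-), made by CRISPR-Cas9 in early embryos, were set against wild type (WT). Whole adult testes gave 2 libraries each of Piwil1-/-, Piwil2-/-, Piwil3-/-, Piwil4-/- and WT, and testes at 3 d.p.p. (days after birth) gave 2 each of Piwil2-/-, Piwil4-/- and WT. Adult germ cells sorted by Hoechst fluorescence gave 30 libraries, from Piwil1-/- and WT, of fractions labelled SPG/PL (spermatogonia and preleptotene spermatocytes), LZ (leptotene and zygotene), P (pachytene) and D (diplotene). A separate WT series of 14 sorted libraries, 2 per stage, ran from spermatogonia to mature sperm, and 43 libraries were from oocytes and embryos. The oocytes were of WT, Piwil2-/-, Piwil3-/- and Piwil4-/- females. The embryos were of WT and Piwil3-/- mothers, by WT males. The mutations are present in every cell of the animal, and the labels do not say whether libraries of 1 group came from different animals, so p-values measure the spread between these libraries.

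The stage series is in FPKM, a share of each library. The testis and sorted libraries are in values per kilobase of gene relative to the ERCC spike-in, RNA of known amount added to each sample, and the tables are not compared with each other in level. By the size of the smallest steps in the values, 1 read per kilobase was worth between 0.146 and 0.156 FPKM in the round spermatid libraries and between 0.537 and 0.609 FPKM in the mature sperm libraries. In the testis libraries it was worth between 0.0297 and 0.125. The targeted transcripts were lower in their own mutants where wild type expressed them. Piwil1 was at 14.3 and 21.6 in Piwil1-/- adult testes against 37.3 and 35.6 in WT. Piwil2 was at 0.6013 and 0.490 in Piwil2-/- adult testes against 11.5 and 13.2 in WT. These adult falls were not confined to the targeted mutant. Piwil1 was at 4.03 and 3.68 in Piwil2-/- and at 7.09 and 0.280 in Piwil4-/- adult testes, below both Piwil1-/- libraries. Piwil2 was at 0.409 in the second Piwil4-/- adult library, though higher in the first. At 3 d.p.p. Piwil2 was at 0.593 and 0.197 in Piwil2-/-, against 7.455 and 6.79 in WT and 4.06 and 7.4 in Piwil4-/-. Piwil4 was at 2.05 and 1.73 in Piwil4-/- testes at 3 d.p.p. against 13.2 and 14.5 in WT. Piwil3 did not exceed 0.4 in any testis library, which gives no check of the Piwil3-/- label.

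The label of the round spermatid libraries was checked against 14 marker genes of round spermatids, of which 4 (Gapdhs, Spaca3, Tssk1b and Actl7a) are among the 123 genes. All 14 were over 2 FPKM in both round spermatid libraries. They were also all over 2 FPKM in the second spermatogonia, zygotene and mature sperm libraries, so this count does not tell the stages apart. Tnp1, a transition protein that replaces histones, was at 1809 and 2464 FPKM in round spermatids against 53.2 and 41.5 in pachytene spermatocytes. Sycp3, of the meiotic chromosome axis, was at 74.6 and 97.2 FPKM in round spermatids against 1351 and 1238 in pachytene spermatocytes.

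The 123 genes held 10.6% and 8.56% of all FPKM in the 2 round spermatid libraries, with medians of 401 and 315 FPKM and a range from 161 to 1528 FPKM. Before that they were low, though not silent. Their median was 2.02 and 6.83 FPKM in spermatogonia, 0.991 and 14.95 in preleptotene, 2.11 and 3.88 in leptotene, 3.23 and 3.69 in zygotene and 4.15 and 2.37 in pachytene. The second preleptotene library stood apart from the first, with 90 of the 123 genes at 10 FPKM or more and Tnp1 at 363 FPKM, against 35.4 FPKM in the first. Whether carried-over RNA of later cells is part of this was not tested. The median of the highest earlier stage was 2.23% of the round spermatid level, and the pachytene level in the rule keeps that stage low by choice.

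**Figure D1:**
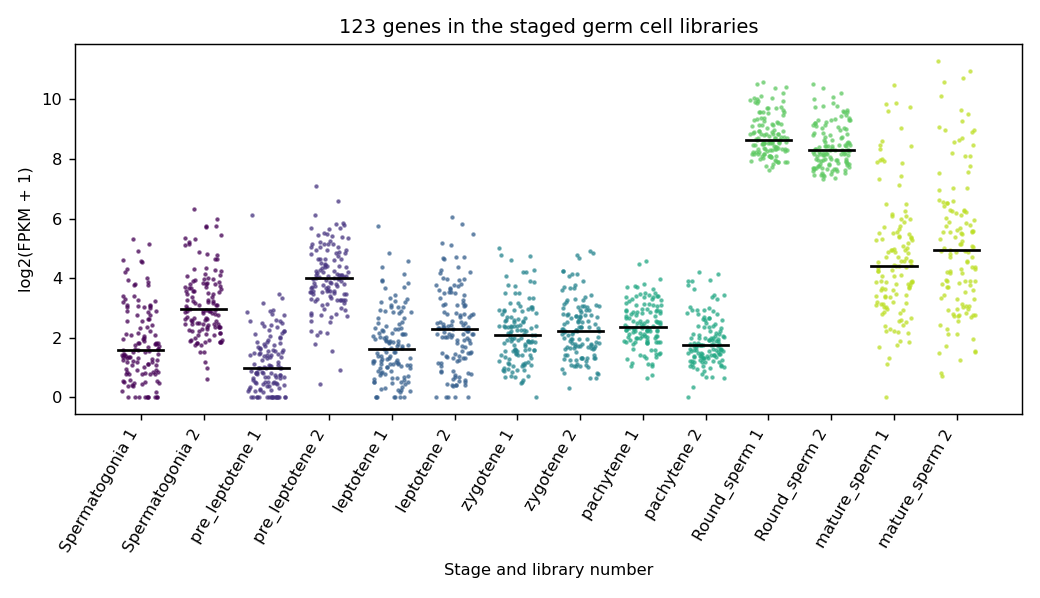
Level of the 123 genes in each library of the wild-type stage series, from spermatogonia to mature sperm, as log2(FPKM + 1), with 1 point per gene and the median as a bar. The genes were chosen for their round spermatid and pachytene values. Medians lie between 0.991 and 14.95 FPKM before the meiotic divisions, at 401 and 315 FPKM in round spermatids and at 20.4 and 29.9 FPKM in mature sperm, where the points spread over the widest range.

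Spag4, a SUN-domain protein of the nuclear envelope, departed most from this course. It was at 22.9 and 39.1 FPKM in spermatogonia, 68.6 and 53.6 in preleptotene and 53.3 and 55.8 in leptotene, then at 9.12 and 16.5 in zygotene, 4.82 and 1.66 in pachytene and 379 and 301 in round spermatids. Its early level reached 17.97% of the round spermatid level, the highest share of the 123 genes, and all 4 preleptotene and leptotene libraries were above all 4 zygotene and pachytene ones.

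By annotation 111 of the 123 genes are protein coding, 11 are lncRNAs and 1 is a pseudogene. Their spans in the genome were short. The median was 5982 bases for the protein-coding ones, against 9129 bases for 527 other protein-coding genes at 200 FPKM or more and 15295 bases for all protein-coding genes. Named genes make up 87 of them, and 36 carry only a locus number.

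The most abundant named genes in round spermatids were Irgc, at 1333 and 1347 FPKM, and Prm3, at 1370 and 1189 FPKM. Irgc encodes a member of the immunity-related GTPase family made in the testis, and Prm3 lies with the protamine genes but encodes an acidic protein of the spermatid cytoplasm in mouse. CUNH20orf144, Spata20, Tmem210, Spata19, Fam229a, Znrf4 and Tex33 followed, with means between 872 and 1047 FPKM. The 2 round spermatid libraries differed by a median of 1.30-fold over the 123 genes, so the order among these neighbours is not settled.

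Known functions fall on several structures of the sperm. The acrosome and egg-contact list held 7 of the 123 genes among its 31 genes in the table. Spaca3, Spaca4 and Spaca7 are acrosomal proteins, Actl7a and Actl9 are actin-related proteins that hold the acrosome to the nucleus, Ccin (calicin) is a protein of the perinuclear theca, and Spata46 is a protein of the spermatid nuclear envelope. Plcz1, the sperm phospholipase that starts calcium oscillations in the egg, and Eqtn, an acrosomal membrane protein, also met the rule. The flagellum and sheath list gave 3 of 43 (Spata19, a mitochondrial protein of the midpiece, Spag4 and Odf3). The cytoskeleton list gave 3 of 17 (the profilin Pfn3, the actin-capping subunit Capza3 and the kinesin Kif2b), and the ubiquitin list 3 of 19 (among them Rnf151 and Klhl10, a partner of cullin 3 in spermatids). The sperm chromatin list gave only Prm3 (1 of 5), listed there with the protamines though its protein is cytoplasmic in mouse. Energy metabolism (Gapdhs, 1 of 11), kinases (Tssk1b, 1 of 17) and transcription regulators (Fhl5, a coactivator of CREM, 1 of 16) gave 1 each. RNA storage and translation gave 0 of 14. Protamine 2 and the transition protein Tnp1, though abundant in round spermatids, did not meet the fold.

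In mature sperm most of the 123 genes were low and a few stayed near or above their round spermatid level. The median was 20.4 and 29.9 FPKM in the mature sperm libraries against 401 and 315 FPKM in the round spermatid libraries. Since the round spermatid values chose the genes, this is a description with no test. In 114 of the 123 genes both mature sperm libraries were below both round spermatid libraries, and in 3 both were above. The mean in mature sperm was at most 10% of the round spermatid mean for 74 genes (60.2%), between 10% and 100% for 42 and above it for 7 (5.69%). Among the other 545 abundant genes it was at most 10% for 27.9% and above the round spermatid mean for 16.3%. The median was 6.80% of the round spermatid level, against 20.1% for the other 545 abundant genes, which were not held to the fold over pachytene. FPKM are shares of a library and say nothing of RNA per cell.

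Irgc was the highest of the 123 genes in mature sperm, at 1437 and 2514 FPKM, against 1333 and 1347 in round spermatids. Gapdhs, the glycolytic enzyme bound to the sperm fibrous sheath, was at 949 and 1543 FPKM in mature sperm against 792 and 761 in round spermatids. The lncRNA LOC121133050 was at 341 and 505 FPKM in mature sperm against 253 and 288 in round spermatids. These are the 3 genes for which both mature sperm libraries were above both round spermatid libraries. CUNH20orf144 was at 918 and 1963 FPKM in mature sperm against 1061 and 1033 in round spermatids, and Prm3 was at 789 and 1667 against 1370 and 1189. For CUNH20orf144 and Prm3 the 2 stages overlapped.

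Other messages stayed in the range of their round spermatid level. Klhl10 was at 525.8 and 726 FPKM in mature sperm against 558 and 463 in round spermatids. Znrf4, a membrane ubiquitin ligase, was at 849 and 1109 FPKM in mature sperm against 983 and 870 in round spermatids. In both of these the 2 stages overlapped. The 12 highest genes in mature sperm held 67.6% of the summed mature sperm level of the 123 genes, against 23.3% of the sum in round spermatids for the 12 highest there.

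The acrosome and egg-contact genes had a median of 4.31% of the round spermatid level over the 7, against 6.80% over all 123. Spaca7 was at 20.6 and 18.8 FPKM in mature sperm against 771 and 591 in round spermatids. Actl7a was at 31.5 and 32.7 FPKM in mature sperm against 479 and 347 in round spermatids. Actl9 had the highest share of the 7, 18.3%, at 32.9 and 68.6 FPKM in mature sperm against 305.1 and 249 in round spermatids. Tssk1b, of the kinase list and needed for spermiogenesis in mouse, was at 13.6 and 13.9 FPKM in mature sperm against 450 and 382 in round spermatids. For each of these both mature sperm libraries were below both round spermatid libraries.

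Further examples, chosen after their values were seen, include channel, motor and membrane genes. Aqp7, an aquaglyceroporin, was at 9.37 and 9.92 FPKM in mature sperm against 580 and 449 in round spermatids. Kif2b was at 6.81 and 4.33 FPKM in mature sperm against 420 and 335 in round spermatids. Tmem249 had the lowest share, 0.976% of the round spermatid level, at 5.07 and 0.639 FPKM in mature sperm against 365 and 220 in round spermatids. Pfn3 was at 89.6 and 375 FPKM in mature sperm against 995 and 653 in round spermatids, and Spata19 was at 89.4 and 75.2 FPKM in mature sperm against 1050 and 874.

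More members with a known role were lower in mature sperm. Theg, a spermatid protein that binds a chaperonin in mouse, kept 171 and 276 FPKM in mature sperm against 420 and 345 in round spermatids, and Capza3 kept 62.4 and 93.6 FPKM against 307 and 285. Fhl5 was at 53.1 and 61.0 FPKM in mature sperm against 614 and 632 in round spermatids. Rnf151 was at 37.6 and 75.9 FPKM in mature sperm against 498 and 512 in round spermatids. For each of these both mature sperm libraries were below both round spermatid libraries. Plcz1, at 19.3 and 26.9 FPKM in mature sperm against 286 and 253 in round spermatids, lay near the middle of the 123 genes by its share.

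Lower levels in mature sperm were found for Ccin, at 11.7 and 6.54 FPKM in mature sperm against 246 and 211 in round spermatids, and Odf3, at 5.26 and 2.32 FPKM against 264 and 175. Sun5, a SUN-domain protein that joins the sperm head to the tail, was at 13.6 and 3.84 FPKM in mature sperm against 455 and 316 in round spermatids. Hipk4, a kinase of spermatid head shaping in mouse, was at 7.6 and 7.37 FPKM in mature sperm against 373 and 283 in round spermatids.

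The mature sperm libraries also held RNA of other cells. Over 7 immune markers (Cd74, C1qa, C1qb and others) the sum was 2944 and 2092 FPKM in mature sperm, with all 7 over 2 FPKM, against 4.86 and 3.32 in round spermatids. Over 2 red cell markers it was 46.1 and 445 FPKM against 0.288 and 0.270. Prm2, a sperm protamine message, was at 8508 and 17967 FPKM in mature sperm against 1888 and 3169 in round spermatids. The part of other cells in the levels of the 123 genes was not tested.

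**Figure D2:**
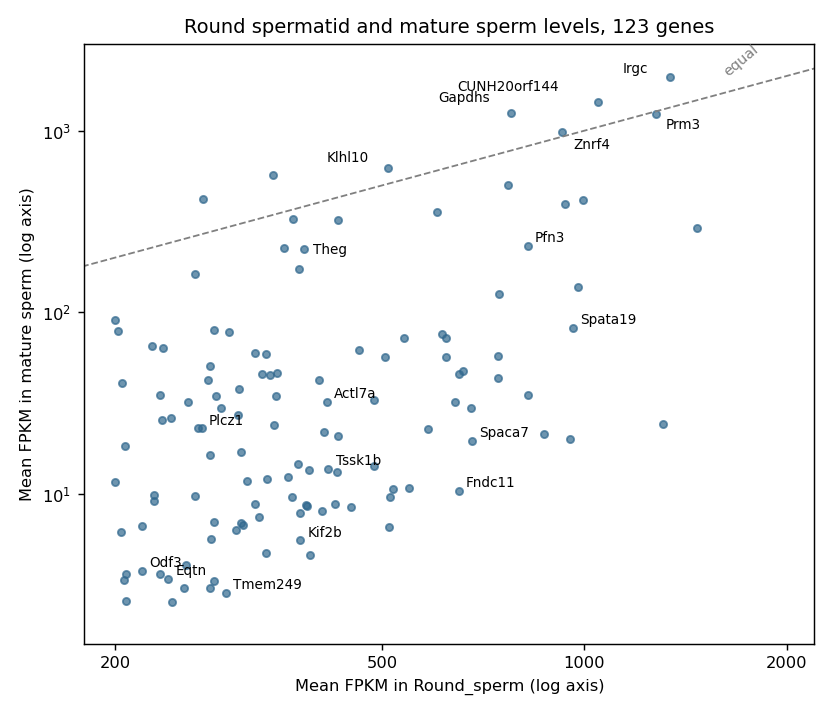
Mean FPKM in mature sperm against mean FPKM in round spermatids for the 123 genes (both axes log, n = 2 libraries a stage, dashed line at equal levels). Of the 123 genes 7 lie above the line, with Irgc, CUNH20orf144 and Gapdhs at the top, and 74 lie at 10% of the round spermatid level or less, Tmem249 lowest at 0.976%.

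A further comparison sets mature sperm against zygotene spermatocytes, 2 stages whose values the rule did not use. The zygotene medians of 3.23 and 3.69 FPKM lay near the pachytene medians of 4.15 and 2.37 FPKM, which the rule kept low. The comparison is therefore not independent of the rule. Of the 123 genes, 119 passed the filter on low values (over 2 FPKM in at least 40% of the libraries compared), and 54 were called higher in mature sperm (at least 4-fold and adjusted p under 0.01 with limma), against 25.5% of all 15894 genes tested. None was called lower, against 13.5% of all genes tested, 118 of the 119 differences were positive, and 78 genes had an unadjusted p under 0.05 (limma), against 79.8% of all genes tested. Of the 119 genes, 14 were over 2 FPKM in no zygotene library and passed the filter through mature sperm alone, so the count is a description. The median difference was 2.61 on the log2(FPKM + 1) scale over the genes tested, against 0.33 over all genes. The count fell to 22 without the second mature sperm library, and to between 32 and 34 without each of the others. Median-ratio size factors moved the median of all genes to 1.09 and gave 64 genes called higher.

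Klhl10 rose most, by 6.26 ± 0.59 (SE) on the log2(FPKM + 1) scale (limma, adjusted p = 3.98e-06), and Irgc by 6.01 ± 0.62 (limma, adjusted p = 7.72e-06). Znrf4 and Gapdhs rose by 6.00 each. At the other end CUNH17orf98 was at 0.00 and 13.96 FPKM in the 2 mature sperm libraries and differed by 0.41 ± 1.40 (limma, adjusted p = 0.799), a difference that its libraries do not resolve.

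In whole adult testes the 123 genes separated the genotypes into 2 sets. Their summed level was 8.76 and 13.6 in Piwil1-/-, 10.9 and 10.4 in Piwil2-/- and 41.1 and 15.6 in Piwil4-/- testes, but 10815 and 10175 in Piwil3-/- testes, against 6470 and 8832 in WT testes. As shares of the WT mean these sums were 0.146% in Piwil1-/-, 0.139% in Piwil2-/-, 0.371% in Piwil4-/- and 137% in Piwil3-/- testes. The sum of all other genes was 74.9%, 41.99%, 43.6% and 104% of WT in the same order. The WT testes at 3 d.p.p. gave a sum of 5.601 and 8.76, or 0.0938% of adult WT. In bulk tissue fewer spermatids and less RNA per spermatid cannot be told apart.

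All 123 genes were called lower in Piwil1-/-, Piwil2-/- and Piwil4-/- testes (limma, at least 4-fold and adjusted p under 0.01), against a background of 13.7%, 32.5% and 31.4% of genes called lower in these comparisons. Every mutant library was below every WT library for each of the 123 genes, against 31.7%, 48.2% and 44.8% of all genes above 0 in these comparisons. Apart from Tulp2 the genes pass the filter on low values through the WT libraries alone, so the count is a description. The 3 comparisons share the WT libraries and are not independent. All 123 were also called higher in adult than in 3 d.p.p. WT testes, where the background was 34.5%. No gene of the 123 was over 2 in any library at 3 d.p.p., so all of them, Tulp2 included, passed that filter through the adult libraries alone, and this count too is a description.

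Irgc was at 0.0926 and 0.273 in Piwil1-/-, 0.0275 and 0.115 in Piwil2-/- and 1.16 and 0.151 in Piwil4-/- testes, against 214 and 383 in WT testes. The differences on the log2(value + 1) scale were -7.93 ± 0.29, -8.07 ± 0.29 and -7.51 ± 0.29 (SE), values that depend on the added 1 and are given as a description, since Irgc passed the filter through the WT libraries alone.

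Gapdhs was at 0.2003 and 0.177 in Piwil1-/-, 0.208 and 0.374 in Piwil2-/- and 0.716 and 0.5095 in Piwil4-/- testes, against 125 and 225 in WT testes. Znrf4 was listed at 0 in both Piwil1-/- and both Piwil2-/- libraries and at 0.828 and 0.162 in Piwil4-/- libraries, against 171 and 267 in WT. Prm3 was listed at 0 in all Piwil1-/- and Piwil2-/- libraries too, against 92.6 and 141 in WT, and at 0.30 and 0 in Piwil4-/- testes. Over the 123 genes, 87 and 92 were listed at 0 in the 2 Piwil1-/- libraries, 92 and 85 in the Piwil2-/- libraries and 11 and 53 in the Piwil4-/- libraries, and none in Piwil3-/- or WT libraries.

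Tulp2, of the tubby family, was the exception. It was at 3.14 and 3.81 in Piwil1-/-, 6.27 and 5.12 in Piwil2-/- and 8.50 and 6.49 in Piwil4-/- testes, against 102 and 136 in WT testes and 0 and 0.254 in WT testes at 3 d.p.p. It was the only one of the 123 genes over 2 in any library of these 3 mutants. It still fell by 4.73 ± 0.21, 4.15 ± 0.21 and 3.81 ± 0.21 (SE) on the log2(value + 1) scale (limma, largest adjusted p = 4.56e-10). Pkib, an inhibitor of protein kinase A, was next in Piwil2-/- and Piwil4-/- testes, at 1.25 and 1.20 and at 0.913 and 1.74, against 33.6 and 42.6 in WT.

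**Figure D3:**
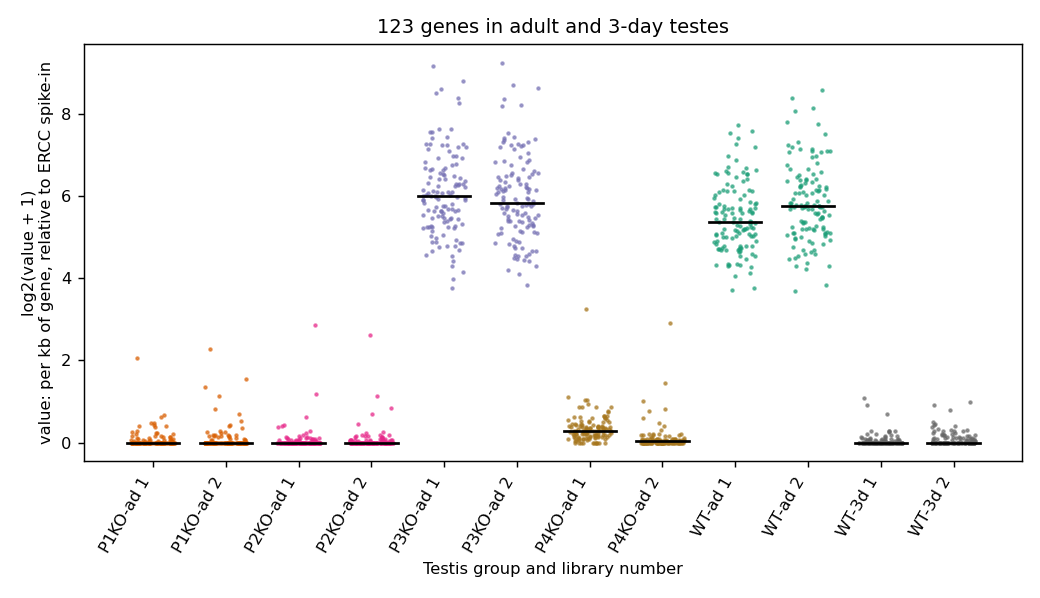
Level of the 123 genes in each adult testis library and in wild-type testes at 3 d.p.p., as log2(value + 1) of values per kilobase relative to the ERCC spike-in, with 1 point per gene and the median as a bar. The P1KO, P2KO and P4KO libraries (Piwil1-/-, Piwil2-/- and Piwil4-/-) lie near 0 with Tulp2 as the highest point in each, and the P3KO (Piwil3-/-) libraries lie with the adult wild-type ones.

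The low levels in Piwil1-/- testes stood beside spermatocyte markers that were summed at 259 and 337, against 295 and 260 in WT testes. In Piwil2-/- and Piwil4-/- testes those 14 markers were summed at 34.1 and 27.6 and at 71.7 and 22.5. Sertoli cell markers were summed at 966 and 1032 in Piwil2-/- and at 924 and 1284 in Piwil4-/- testes, against 227 and 174 in WT testes. The share of other cells in the values of these 123 genes was not tested.

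The 2 Piwil4-/- libraries differed from each other. The first had 112 of the 123 genes above 0 and the second 70, although 1 read per kilobase was worth a like amount in both (0.0354 and 0.0297). Across the 123 genes, the rank correlation of the levels with those of round spermatids was 0.64 in the first Piwil4-/- library and 0.28 in the second, against 0.13 and 0.01 in the Piwil2-/- and 0.16 and 0.08 in the Piwil1-/- libraries (across genes, n = 123, a description). In both Piwil4-/- libraries 47 genes were above both Piwil2-/- libraries, against 16.1% of all genes above 0, and none was below, against 9.0%. Only Tulp2 passed the filter of this comparison, and it differed by 0.34 ± 0.21 (limma, adjusted p = 1.0). It was not called and its unadjusted p was over 0.05, as no gene was called (0.0%), while 121 of all genes tested had an unadjusted p under 0.05 (limma).

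Between Piwil1-/- and Piwil2-/- testes, both Piwil1-/- libraries were above both Piwil2-/- libraries for 12 of the 123 genes, against 38.9% of all genes above 0, and below for 12, against 24.6%. The other 99 overlapped or were equal, and between 85 and 92 of the 123 genes were listed at 0 in each of these 4 libraries. Only Tulp2 passed the filter of this comparison. It was lower in Piwil1-/- than in Piwil2-/- testes, by -0.58 ± 0.22 on the log2(value + 1) scale (limma, adjusted p = 0.0232), and was not called, being short of the 4-fold bound, against 0.142% of genes called lower.

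In Piwil3-/- testes the mean was above the WT mean for 114 of the 123 genes and below it for 9. The ratio of the Piwil3-/- mean to the WT mean had a median of 1.27 and ran between 0.891 and 1.98. Both Piwil3-/- libraries were above both WT libraries for 89 genes, against 14.8% of all genes. They were below for 1, against 27.4% of all genes, and overlapped for 33. No gene was called at the 4-fold bound, against 0.0369% of all genes, 54 had an unadjusted p under 0.05, against 18.3% of all genes, and 10 were higher at an adjusted p under 0.05 (limma), against 4.91% of all genes.

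Irgc had the largest ratio. It was at 576 and 606 in Piwil3-/- testes against 214 and 383 in WT testes, higher by 1.04 ± 0.29 on the log2(value + 1) scale (limma, adjusted p = 0.0499). Gapdhs was at 337 and 296 in Piwil3-/- testes against 125 and 225 in WT testes, higher by 0.91 ± 0.23 (limma, adjusted p = 0.0356). Klhl10, Spata20, Tmco5a, Ccdc196, Ms4a5 and the lncRNAs LOC121133050 and LOC121138523 were also at this bound. Tmem89 was the lowest in ratio, at 18.6 and 17.4 in Piwil3-/- testes against 18.9 and 21.5 in WT testes, and differed by -0.16 ± 0.14 (limma, adjusted p = 0.633).

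The 2 WT libraries differed from each other by a like amount. The second WT library was above the first for 111 of the 123 genes, with a median ratio of 1.27, as large as the median ratio of Piwil3-/- to WT, and its summed round spermatid markers were at 2466 against 1369 in the first. Without the first WT library 2 genes passed the adjusted p of 0.05 and without the second 56, while leaving out a Piwil3-/- library left 0 or 2. Scaling each library to the same total left 1, a pseudocount of 0.1 left 0, and median-ratio size factors, which moved the median of all genes to 0.14 against -0.09, gave 73. The markers of round spermatids were summed at 3291 and 2860 in Piwil3-/- testes, above both WT libraries, and the part of this in the values of the 123 genes was not tested.

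The Piwil3-/- to WT ratio ran with the mature sperm level of the genes. The 15 genes with a mature sperm mean of at least 50% of the round spermatid mean had a median Piwil3-/- to WT ratio of 1.602, against 1.22 for the other 108. The same 15 genes had a median ratio of 1.54 between the second and the first WT library, against 1.23 for the other 108. The rank correlation with the mature sperm share was 0.557 for the Piwil3-/- to WT ratio and 0.591 for the ratio of the WT libraries (across genes, n = 123, a description, with WT values in both ratios).

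**Figure D4:**
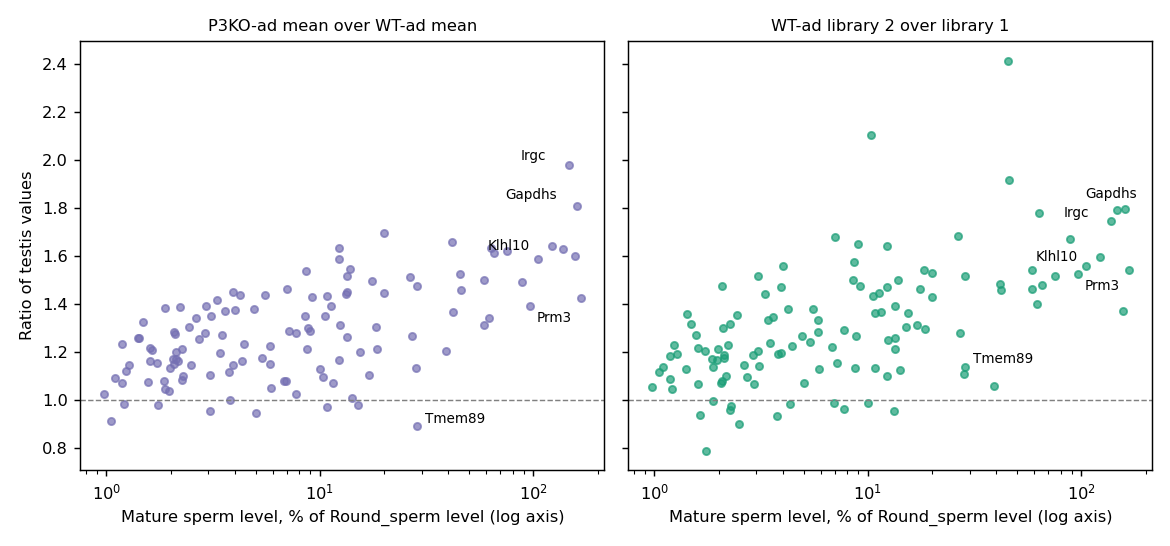
Ratio of the Piwil3-/- (P3KO) mean to the wild-type mean in adult testes (left) and ratio of the second wild-type library to the first (right) for the 123 genes, against the mature sperm level as a percent of the round spermatid level (log axis). Both ratios are higher towards the right, with rank correlations of 0.557 and 0.591 across genes, and the dashed line marks a ratio of 1.

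At 3 d.p.p. none of the 123 genes was over 2 in any library. The highest was CUNH20orf144, at 1.39 and 0.619 in Piwil2-/-, 0.832 and 0.486 in Piwil4-/- and 1.13 and 0.873 in WT testes. Ankrd61, an ankyrin-repeat protein, and Rnf151, a RING finger protein of the spermatid acrosome in mouse, followed with between 0.515 and 1.06 in all 6 libraries. For these genes the genotypes overlapped or lay within the spread of the pairs.

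The levels of the 123 genes were also described in the sorted fractions, all labelled as stages before the meiotic divisions. The summed level of the 123 genes in Piwil1-/- cells was 17.8, 14.9 and 19.4 in SPG/PL, 15.9, 12.6 and 9.33 in LZ, 17.7, 14.4, 14.9 and 8.34 in P and 26.5, 26.1, 28.09 and 28.03 in D. In WT cells it was 40.7, 85.9, 17.4 and 15.1 in SPG/PL, 77.3, 255, 18.5 and 23.1 in LZ, 308, 211, 39.8 and 56.7 in P and 458, 467, 134 and 112 in D cells. Libraries numbered 1 were above libraries numbered 2 in each WT fraction, 3.76-fold in D and 7.99-fold in LZ by their means. The WT libraries numbered 1 also had more round spermatid markers over 2, with 11 and 11 of 14 in D against 4 and 3 in the libraries numbered 2. Their levels ran with those of round spermatids across the 123 genes, with rank correlations of 0.75 and 0.69 in D for libraries numbered 1 and 0.40 and 0.55 for those numbered 2. Whether spermatid RNA in the sort is part of this was not tested.

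In WT D against P cells 32 of the 123 genes passed the filter, none was called higher at the 4-fold bound, against 2.88% of genes, 8 had an unadjusted p under 0.05 (limma), against 69.1% of genes, and 6 were higher at an adjusted p under 0.05, against 57.2% of genes. Tmem225, a testis membrane protein that regulates a phosphatase, was the clearest, at 4.08, 9.83, 11.3 and 11.5 in D against 1.41, 1.90, 2.08 and 2.24 in P cells, and rose by 1.73 ± 0.24 on the log2(value + 1) scale (limma, adjusted p = 4.30e-07), or by 1.98 ± 0.21 without the libraries numbered 1 (limma, adjusted p = 9.78e-08). Unlike most of the 123 genes it was as high in the libraries numbered 2 as in those numbered 1. Without the libraries numbered 1 the count at an adjusted p under 0.05 was 16, against 59% of genes, and with these alone 9, against 27.6%. The labels do not say what A and B stand for, and these fits take each library as separate. With the A and B libraries merged, 47 of the 123 genes passed the filter. Of these, 2 were then higher at an adjusted p under 0.05 (limma), against 4305 of all 8618 genes.

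In D cells the sum of each Piwil1-/- library was below that of each WT library, where the lowest was 112. In the 4 Piwil1-/- D libraries 20, 20, 20 and 18 of the 123 genes were above 0, against 122, 120, 107 and 101 in the WT D libraries, and 91 genes were at 0 in all 4 Piwil1-/- libraries. For 76 genes every Piwil1-/- D library was below every WT D library, against 3.34% of all genes, and without the libraries numbered 1, which leaves 2 libraries a genotype, for 83 genes, against 17.9%. In P cells the count was 57 genes, against 1.46% of all genes, and 67 without the libraries numbered 1, against 9.3%. Of the 14 round spermatid markers, 3, 2, 3 and 2 were over 2 in the Piwil1-/- D libraries, against 11, 11, 4 and 3 in WT D. The paper found few round spermatids, if any, in Piwil1-/- tubules. Whether spermatid RNA in the WT sorts is part of these counts, in D or P cells, was not tested.

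**Figure D5:**
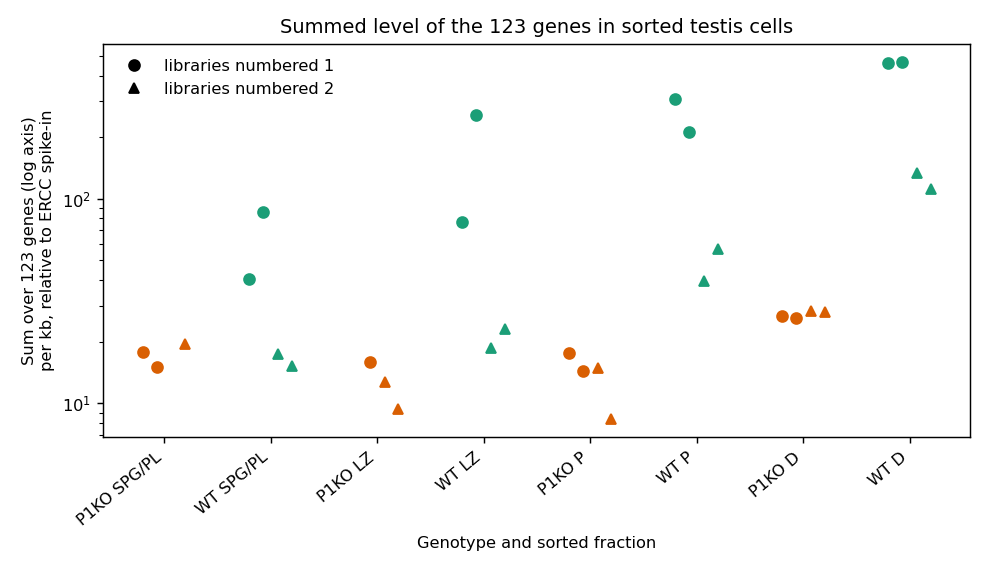
Summed level of the 123 genes in each sorted library of Piwil1-/- (P1KO) and wild-type testes (log axis, per kilobase relative to the ERCC spike-in), with circles for libraries numbered 1 and triangles for libraries numbered 2. In D cells the Piwil1-/- libraries lie between 26.1 and 28.09 and the wild-type libraries between 112 and 467.

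Few of the genes were high enough for a test. In D cells 5 passed the filter and 1, Pfn3, was called lower (limma), against 0.0468% of genes, and 3 were lower at an adjusted p under 0.05, against 1.89% of genes. Pfn3 and Tulp2 were over 2 in no Piwil1-/- D library, so these counts are a description. Pfn3 was listed at 0 in all 4 Piwil1-/- D libraries against 4.76, 4.69, 2.82 and 2.86 in the WT D libraries, and passed the filter through the WT libraries alone. Its fitted difference of -2.23 ± 0.38 on the log2(value + 1) scale depends on the added 1, and both it and the call are a description. Its call was lost under a filter of over 5, under both rescalings, with the A and B libraries merged and without the libraries numbered 1. With no filter all 123 genes were tested and 11 were called lower, against 0.0662% of genes. In P cells LOC101823557 alone passed the filter and was not called (-0.50 ± 0.38, limma, adjusted p = 0.783), against 0.0253% of genes, nor without the libraries numbered 1 (-0.31 ± 0.25, limma, adjusted p = 0.980).

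Tulp2 was at 0.581, 1.62, 0.722 and 0.481 in Piwil1-/- D cells against 5.14, 7.79, 3.04 and 3.08 in WT D cells, and differed by -1.598 ± 0.301 on the log2(value + 1) scale. It was over 2 in no Piwil1-/- D library, so it passed the filter through the WT libraries alone and the difference is a description. Kif2b was at 2.24, 1.15, 0.694 and 1.48 in Piwil1-/- D cells against 3.62, 3.95, 2.83 and 3.24 in WT D cells, and fell by 0.92 ± 0.21 (limma, adjusted p = 0.00308), or by 0.97 ± 0.22 without the libraries numbered 1 (limma, adjusted p = 0.00471). With only the libraries numbered 1, Kif2b differed by -0.86 ± 0.28 (limma, adjusted p = 0.0883). Only 1 Piwil1-/- D library was over 2 for Kif2b, and the WT libraries alone would have carried it past the filter. For both genes the genotypes did not overlap. Tmem225 did overlap, at 5.38, 4.80, 8.08 and 7.18 in Piwil1-/- D cells against 4.08, 9.83, 11.3 and 11.5 in WT D cells, a difference of -0.41 (limma, adjusted p = 0.391), or of -0.53 ± 0.21 without the libraries numbered 1 (limma, adjusted p = 0.162).

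Irgc was at 0.189, 0.132, 0.176 and 0 in Piwil1-/- D cells against 13.5, 18.6, 1.87 and 1.42 in WT D cells. Prm3 was listed at 0 in all 4 Piwil1-/- D libraries against 11.3, 14.2, 1.17 and 2.95 in WT D cells. For both genes the WT libraries numbered 1 were far above those numbered 2, and all 4 were above the Piwil1-/- libraries. Spag4, high in the earliest stages of the WT stage series, was also present in the earliest fraction here, at 4.85, 5.71 and 8.66 in Piwil1-/- SPG/PL cells against 3.61, 8.00, 5.96 and 4.89 in WT SPG/PL cells, where the genotypes overlapped.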

How the data were processed

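Gene tables deposited by the authors were used: FPKM for the stage series, normalised by the authors to mapped reads, and, for adult testis, values per kilobase given as a ratio to the ERCC spike-in, a unit taken by analogy for the sorted and oocyte tables. The authors built Smart-seq2 libraries, trimmed with Trim Galore 0.5.0, mapped with STAR 2.9 and counted with featureCounts 1.6.4, with multiply mapped reads counted and no strand setting stated, so near-identical or overlapping genes may share reads. Their genome build was not matched to sequence here and no sequence was used. Reads per library are unknown. The value of 1 read per kilobase was estimated from the smallest steps. Columns were assigned by their titles, and 2 columns that matched no sample were not used.

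Genes entered a comparison when 40% or more of its libraries were over 2, and were tested on log2(value + 1) with limma 3.58.1 (R 4.3.3, trended variance, all groups of a table in 1 fit), with Benjamini-Hochberg adjustment over all genes, and called at 4-fold and adjusted p under 0.01, the bounds of the study's methods. The study's permutation test cannot be carried by 2 libraries, and no single-gene permutation test is reported. A fold on this scale understates the change of low genes. The script was tested on simulated data.

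The members and gene lists were chosen with earlier results of these data known. Named genes were the members highest in round spermatids, in mature sperm and in the ratio of both, those in the lists, the extremes of each comparison, of 3 d.p.p. testes and of oocytes, and those at the bounds. Aqp7, Tmem249, Plcz1, Eqtn, Theg, Sun5, Hipk4, Ccdc196, Ms4a5 and the other genes at an adjusted p under 0.05, and loci without a symbol, were named after their values were seen, and 1 gene is not reported here. Libraries with the same label in D and P wild-type cells deviated together (correlations 0.344, 0.275, 0.157 and 0.240 for 1A, 1B, 2A and 2B). The highest correlations with another label were 0.021, 0.242, 0.275 and 0.093. For 2A another label was closer, so the pairing is not settled. With the replicate number as a block no call changed there. At an adjusted p under 0.05, 10 of the 32 genes tested were then higher (limma), against 4695 of all 8333.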

Additional observations from a re-analysis of the deposited data

Results flagged for a closer look

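In a group of 4 libraries, 3 values lay far from the other 3 (49 groups were examined, and chance sets apart about 1 in 20). Tulp2 reached 3.25 and Pfn3 2.20 in the WT LZ library 1B, whose summed level of the 123 genes was 255, the highest of the LZ libraries. Spag4 was at 0.286 in the Piwil1-/- P library 2A and listed at 0 in the other 3.

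Some of the 123 genes were present in oocytes, which the comparisons above do not use. In WT germinal vesicle (GV) oocytes the mean was 7407 for LOC101830310, 760 for LOC101842921, 385 for Tmco2 and 339 for Spata21, in values per kilobase of gene taken as relative to the ERCC spike-in (3 libraries). These genes were named after their values were seen.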

How the results depend on the processing

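The 123 genes called in Piwil1-/-, Piwil2-/- and Piwil4-/- against WT testes and in adult against 3 d.p.p. testes were the same 123 under every alternative run. The rule gave 213 genes at 32-fold, 6 at a doubled fold and 50 at 400 FPKM. Genes called in WT D against P cells (255 of all genes, 0 of the 123) were 518 and 1 with a pseudocount of 0.1, 64 of all genes with equal totals, 62 with median-ratio size factors, and, chosen after seeing the data, 590 without and 101 with only the libraries numbered 1 (leaving out a library, 194 to 368, and 0 to 1 of the 123). In Piwil1-/- D cells the 1 called gene became 2 with a pseudocount of 0.1, 11 with no filter and 0 with a filter of over 5, equal totals, median-ratio size factors, A and B merged or no libraries numbered 1. All genes called there were 55 with median-ratio size factors, against 85, and in P cells 42 with only the libraries numbered 1, against 19. For Piwil3-/- testes all genes called (4) were 7 with a pseudocount of 0.1, 0 with equal totals and 2 with no trend (leaving out a library, 1 to 13). Leaving out a library gave 0 to 9 genes for Piwil4-/- against Piwil2-/- testes (0 with all, where 121 had an unadjusted p under 0.05), 1006 to 1797 for Piwil1-/- against Piwil2-/- testes, and 22 to 34 of the 123 for mature sperm against zygotene. Signs turned for Tmem89 (0.09 with median-ratio size factors), Tex49 in D against P cells (0.01 with only the libraries numbered 1, -0.39 to 0.29 leaving out a library), CUNH17orf98 (-0.64 with a pseudocount of 0.1, -1.54 to 2.36 leaving out a library) and LOC101830310 in mature sperm against zygotene (0.26 with median-ratio size factors), and none of these was past a threshold. The cause of these moves was not tested.

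With the replicate number as a block (replicate block), 56 of the 123 genes were called higher in mature sperm than in zygotene, against 54 without it, and no other count of called genes changed by over 1.5 times. At an adjusted p under 0.05, 1 gene was higher in Piwil3-/- testes with the block, against 10 without it, although numbers do not pair these libraries. With 2 libraries a group, depth and number of libraries limit what differences under 2-fold can be resolved.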

Other observations

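Of the 123 genes, 57 were listed at 0 in all 43 oocyte and embryo libraries, whose depth is unknown. In GV oocytes LOC101830310 was at 6704, 6560 and 7379 in Piwil3-/- against 8239, 7058 and 6923 in WT. Tmco2, a transmembrane and coiled-coil protein, was at 275, 296 and 362 in Piwil3-/- GV oocytes against 430, 407 and 317 in WT GV oocytes. Spata21, a calcium-binding protein of the spermatid in mouse, was at 320, 382 and 363 in Piwil3-/- GV oocytes against 364, 336 and 317 in WT GV oocytes. The genotypes overlapped for LOC101830310, Tmco2 and Spata21. MII oocytes are the later stage, arrested at the second meiotic metaphase. In the 4 libraries labelled WT MII, Tmco2 lay between 0 and 8.44 and Spata21 between 4.91 and 9.80. In the 3 further WT libraries labelled MII2, Tmco2 lay between 7.84 and 20.7 and Spata21 between 13.7 and 38.8. For both genes all of these libraries were below every GV library. Tmem190, a trefoil-domain membrane protein of sperm, was listed at 0 in WT GV oocytes and was at 19.4 and 11.7 in WT embryos 54 h.p.e.a. (the label's time after egg activation).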
